A study of Schizosaccharomyces pombe with 49 samples.

Results

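The kinetochore and centromere genes of the fission yeast Schizosaccharomyces pombe were followed here as 44 genes, taken from the 7015 gene identifiers of the count files by their symbols. A gene was a member if its symbol was fta, mis, cnl, cnp, dad, dam, spc, nuf, ndc, mal, nnf or sim followed by digits. By function, 37 of the 44 are subunits of the kinetochore or factors that load the centromeric histone, and the other 7 share only the form of the symbol. The latter are mal1 (an alpha-glucosidase), mal3 (the microtubule end-binding protein EB1), mis3 (a ribosome biogenesis factor), mis4 (the cohesin loader) and spc1, spc2 and spc3 (signal peptidase subunits). They are reported as members, but counts of subunits leave them out.

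The study sequenced RNA to ask how the kinase complex TOR controls the machinery that destroys meiotic transcripts in growing cells, in which Red1 and Pir1 (gene symbol iss10 in the reference annotation) take part. Its largest set has 31 libraries of pat1-as2 diploids at 26°C. These were wild type, red1Δ and pir1Δ cells growing in rich medium (YEA), after 4 h without nitrogen (EMM-N), and at 1, 2, 3, 4, 5, 6, 7 and 8 h in EMM with 25 µM 1-NM-PP1. All 3 diploids carry pat1-as2, an analogue-sensitive form of the kinase that holds meiosis back, so the drug drives them into meiosis and the wild type is wild type only for red1 and pir1. Each strain and time has 1 library, except for vegetative wild type, which has 2. A further 8 libraries come from h90 cells in YEA at 30°C: wild type, tor2-ts6 (a temperature-sensitive TOR kinase), and tor2-ts6 with ubi4Δ, cul4Δ or ddb1Δ, each of the last 3 with and without pir1Δ. Another 4 come from h90 cells expressing GFP-Pir1 in YEA at 30°C, and GFP-Pir1, GFP-Pir1-SD or GFP-Pir1-SA in EMM at 18°C. The last 3 come from mat1Msmt0 cells at 29°C: wild type in EMM, and pir1Δ in EMM and in YEA. For 3 more mat1Msmt0 samples in YEA at 30°C, only the authors' tables for tor2-ts6 and for pir1Δ were used. Each gives log2 fold changes against a library that its header does not name.

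The kinetochore joins each centromere to spindle microtubules. CENP-A (Cnp1), a variant of histone H3, marks the centromere. The inner kinetochore sits on CENP-A chromatin, the Mis12 complex with Spc7 bridges outward, the Ndc80 complex binds microtubules, and the DASH complex supports that attachment. In meiosis I of fission yeast sister kinetochores attach to the same pole, and the outer kinetochore is taken apart and rebuilt during meiotic prophase.

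The 250 bases before the annotated start of 5 members are printed because they carry the motifs of the early and middle expression groups described next. The sequences and coordinates are from RefSeq, assembly ASM294v3, and are given 5′ to 3′ on the strand of the gene. Capitals mark matches to MCB (ACGCGT, an S phase motif) or FLEX (GTAAACA on either strand, a motif of the meiotic factor Mei4). These motifs do not overlap each other here.
cnp1, chrII:3538254-3538503 (+): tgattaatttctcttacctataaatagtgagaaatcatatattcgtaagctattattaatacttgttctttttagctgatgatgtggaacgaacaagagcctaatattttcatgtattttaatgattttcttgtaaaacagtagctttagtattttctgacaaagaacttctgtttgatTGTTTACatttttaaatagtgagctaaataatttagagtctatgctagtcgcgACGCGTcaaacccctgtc
mis19, chrII:1323481-1323730 (+): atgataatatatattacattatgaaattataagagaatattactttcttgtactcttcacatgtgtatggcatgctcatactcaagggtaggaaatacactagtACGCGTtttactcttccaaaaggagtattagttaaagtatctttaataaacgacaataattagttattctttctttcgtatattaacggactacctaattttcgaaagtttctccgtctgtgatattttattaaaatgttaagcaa
dad3, chrI:5229549-5229798 (+): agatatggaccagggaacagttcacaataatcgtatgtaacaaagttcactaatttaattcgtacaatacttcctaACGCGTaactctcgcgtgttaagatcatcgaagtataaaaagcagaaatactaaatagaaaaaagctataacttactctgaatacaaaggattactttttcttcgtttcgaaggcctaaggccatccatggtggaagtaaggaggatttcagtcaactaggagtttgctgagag
nnf1, chrI:4409248-4409497 (+): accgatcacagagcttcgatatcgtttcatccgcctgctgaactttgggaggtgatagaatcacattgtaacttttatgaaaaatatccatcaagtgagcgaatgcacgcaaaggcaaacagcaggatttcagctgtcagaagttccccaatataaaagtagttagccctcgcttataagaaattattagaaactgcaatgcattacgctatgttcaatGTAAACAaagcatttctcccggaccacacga
mis13, chrII:1155622-1155871 (−): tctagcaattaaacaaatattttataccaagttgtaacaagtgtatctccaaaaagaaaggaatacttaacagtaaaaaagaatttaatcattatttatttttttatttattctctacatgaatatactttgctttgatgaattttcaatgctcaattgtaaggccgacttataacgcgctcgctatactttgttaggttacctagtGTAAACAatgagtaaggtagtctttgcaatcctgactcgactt
MCB was present in 3 of the 44 member promoters (6.82%) and in 135 of 5112 promoters of the annotation (2.64%). These 3 promoters, of cnp1, mis19 and dad3, belong to genes whose highest wild-type value was at 1 h of meiosis. FLEX was present in 7 member promoters (15.9%), against 14.8% of all promoters. Its carriers were cnp1, cnp3, fta6, mal3, mis4, mis13 and nnf1. Of these, mis13 and nnf1 were highest at 4 h in wild type. The others were highest earlier: fta6 in vegetative cells, cnp1, mal3 and mis4 at 1 h, and cnp3 at 2 h. The other subunits highest at 4 h (mis16, mis20, spc7, ndc80, spc25 and spc19) had no FLEX match in this window. In cnp1 the MCB match began 18 bases before the gene start, and in nnf1 the FLEX match began 31 bases before it. Also searched on both strands, and not capitalised, were TTCTTTG, the TR box of the meiotic factor Ste11 (5 members, 11.4%, against 7.81% of all promoters), and AACCCT (3 members, 6.82%, against 8.29%). A match is a run of letters and not a measured binding site, and no match says only that these letters are not in this window.

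Reads assigned to genes, in units of 1e6 reads, were 10.2 to 69 per library over all 46 libraries and 18.3 to 69 in the diploid courses. Values are sense-strand CPM, reads per 1e6 gene reads, after TMM scaling, which assumes that most genes do not differ. The 31 diploid libraries were of 2 kinds. In 20 of them (all red1Δ libraries and all wild-type libraries but vegetative library 2), 4.6 to 6.23% as many reads as on the sense strand lay on the opposite strand of genes with little antisense RNA. In the other 11 (pir1Δ and wild-type vegetative library 2) the share was 0.0116 to 0.0893%. The protocol names 2 library kits, and the labels do not say which library was made with which. The kind of library therefore goes with the pir1Δ strain except through 1 wild-type library, and every pir1Δ difference is given with that in view. In the diploid courses the deletions were as labelled: red1 read 0.552 to 1.21 CPM in red1Δ and 57.3 to 130 in wild type, and iss10 read 0.759 to 4.15 CPM in pir1Δ and 14.8 to 69.9 in wild type. In the other 5 pir1Δ libraries iss10 read 0.721 to 15.7 CPM, the highest in tor2-ts6 cul4Δ pir1Δ, against 54.2 to 145 in the 10 with pir1. Nothing says that libraries came from separate cultures, so p-values measure the spread between these libraries. In a culture, fewer cells expressing a gene and less RNA per cell cannot be told apart.

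Levels in growing cells differed widely among the subunits. Per kilobase of exon, vegetative wild-type diploids (the mean of 2 libraries) ranged among the 37 subunits from 6.94 CPM for cnp20 (CENP-T) to 115 for fta3. The level per kilobase of cnp1 was 20.3, of ndc80 32.4, of dad1 32.6, of mis12 19.5 and of mis6 7.11. The value of 48.9 for fta6 comes from 213 bases of exon and from 2 libraries that differed for this gene (14.5 and 6.28 CPM before division by length). In the ASM294v3 annotation several members lie close together on chromosome II. There mis20 (chrII:3209886-3211163, + strand) is followed by mis17 (chrII:3214206-3215938, + strand), and spc1 (chrII:3537080-3538112, + strand) by cnp1 (chrII:3538504-3540163, + strand). In wild type mis20 was highest at 4 h, the time at which mis17 was lowest, while spc1 and cnp1 were both highest at 1 h.

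Over the diploid courses the members did not move as a block. In wild type, CENP-A and most of its loading factors were highest at 1 h of meiosis, while most of the Mis12 complex, Spc7, Ndc80 and the inner subunits Fta2 and Mis6 were highest at 4 or 5 h. The times of mis12, spc7, ndc80 and fta2 depend on the scaling. Of the 44 members, 36 changed over the 10 times (edgeR F test with strain as a covariate, adjusted p under 0.05), 30 of them subunits. The share over all genes tested was 73.6%, so the members' share of 81.8% is close to that of all genes. Without the wild-type course the count was 9, where 30.2% of genes were called. It was 21 without red1Δ (63.5%) and 23 without pir1Δ (50.6%).

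**Figure D1:**
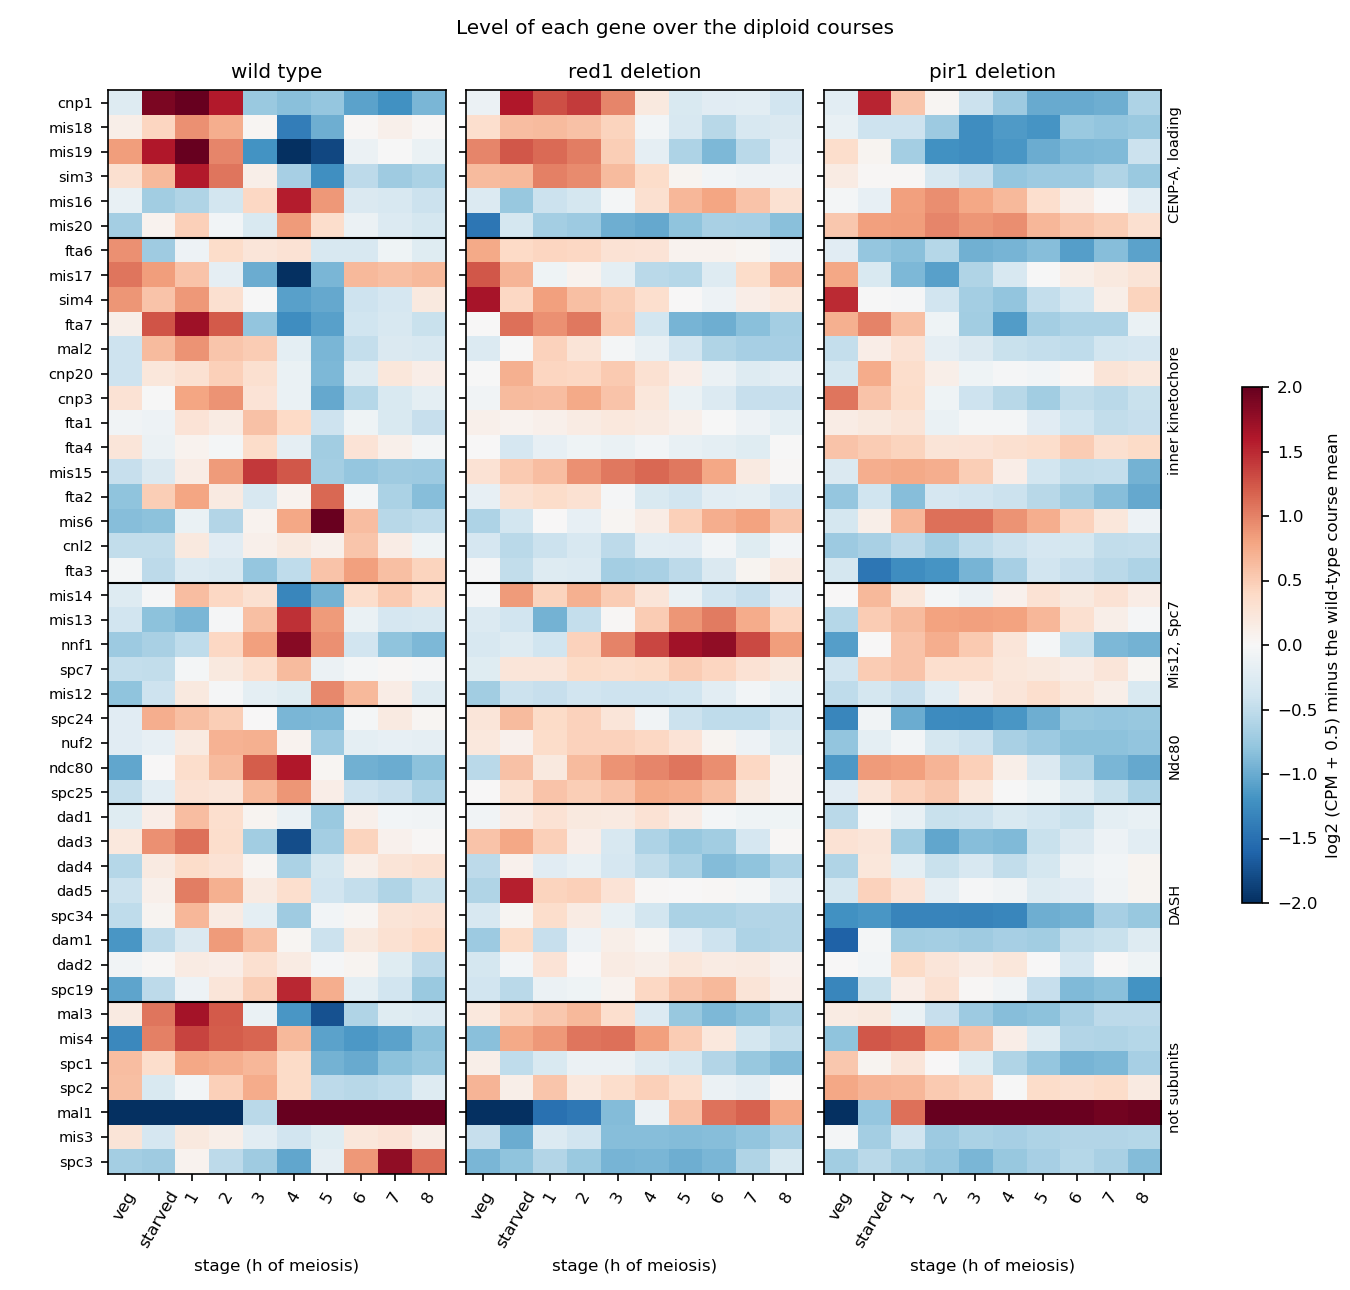
Level of the 44 members (rows, by subcomplex) in the 10 libraries of each diploid strain (columns, by time), as log2 of CPM plus 0.5 minus the gene's mean over the wild-type course. Each cell is 1 library, except vegetative wild type, the mean of 2. In wild type cnp1, mis18, mis19 and sim3 are high at 1 h and low at 4 h, and nnf1, ndc80, mis13, spc19 and mis16 are high at 4 h.

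Among the CENP-A and loading genes, cnp1 encodes CENP-A itself. In wild type it read 33.6 CPM in vegetative cells (both libraries), 150 after starvation, 210 at 1 h and 122 at 2 h, then 23.9 at 3 h and between 17.1 and 23.5 from 4 h to 8 h. It was high only from starvation to 2 h in wild type. In red1Δ it read 37.3 in vegetative cells, 124 after starvation, 99.9, 108 and 80.3 at 1, 2 and 3 h, and 30.8 to 46.2 later, and so stayed up to 3 h. In pir1Δ it read 34.9, then 117 after starvation, 59.8 at 1 h and 41.7 at 2 h, and was at 19.8 to 29.9 from 3 h on. Across strains cnp1 was higher in starved than in vegetative cells by 1.90 ± 0.35 (log2 ± SE, adjusted p 0.000158), and lower at 4 to 6 h than at 1 to 3 h by a log2 difference of -1.55 ± 0.22 (adjusted p 5.69e-05).

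Of the other loading genes, mis18, mis19 and sim3 were also highest at 1 h in wild type. The wild-type values of mis19, a subunit of the Mis18 complex that recruits CENP-A, were 34.2 and 19.7 CPM in the 2 vegetative libraries, 71.8 at 1 h, 6.23 at 3 h and 2.51 at 4 h. Its log2 difference of 4 to 6 h from 1 to 3 h was -1.25 ± 0.34 (adjusted p 0.00611). The CENP-A chaperone gene sim3 read 81.7 CPM in vegetative library 1, 171 at 1 h and 24.1 at 5 h (-1.01 ± 0.17, adjusted p 0.000144). The partner of mis19 in the Mis18 complex, mis18, read 22.5 CPM at 1 h and 4.21 at 4 h (-0.83 ± 0.18, adjusted p 0.00124). For mis18 the sign depends on strand: in the column counted without strand the same difference was +1.08. An annotated non-coding RNA, SPNCRNA.1142, lies on the other strand there, and its strand rose from 3.44 CPM at 4 h to 34.4 at 6 h in wild type.

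Apart from these, mis16 (a histone-binding WD repeat protein) and mis20 were highest at 4 h in wild type. The mis16 values were 53.0 CPM after starvation, 257 at 4 h, 158 at 5 h and 63.6 at 8 h. Over the courses of all strains mis16 missed the threshold (adjusted p 0.0519).

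**Figure D2:**
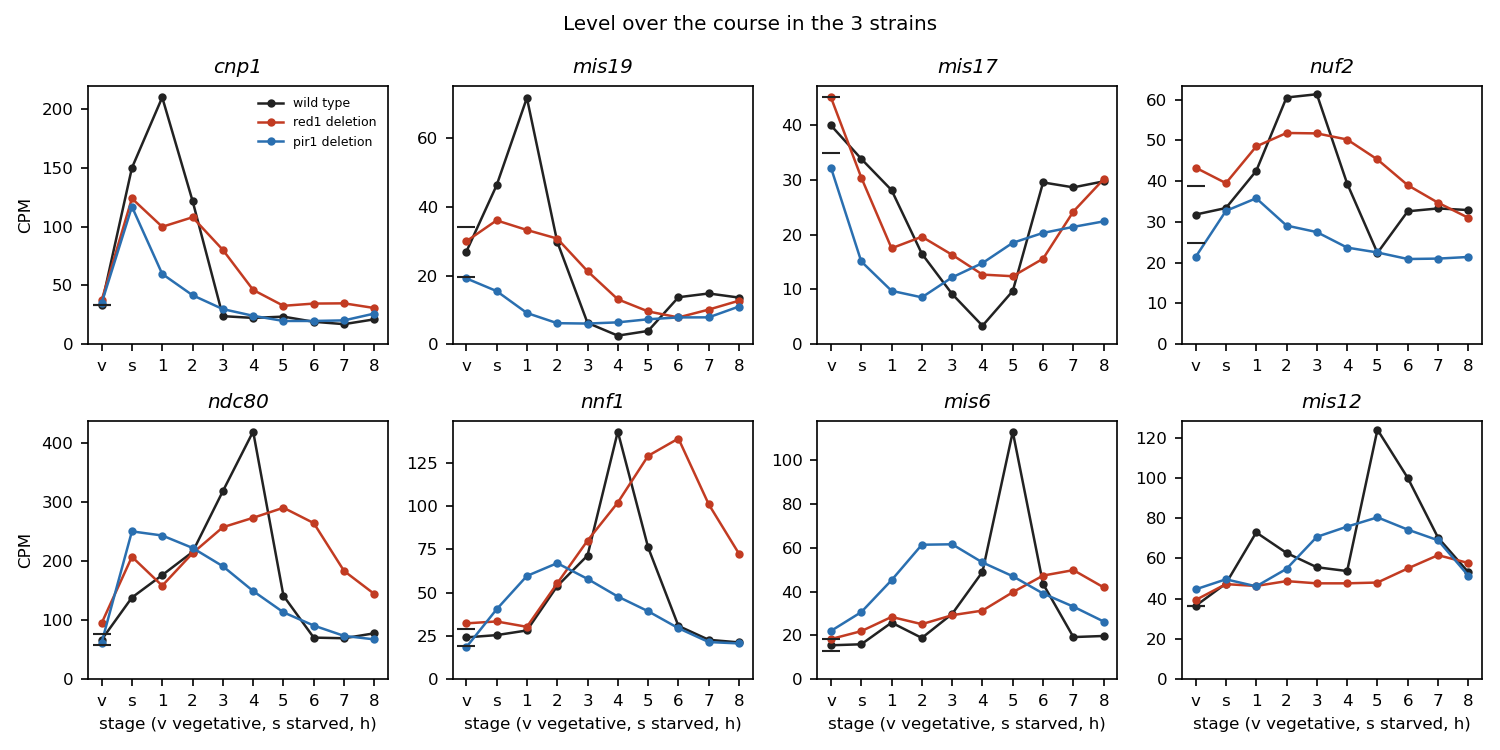
CPM (linear axis from 0) against stage for 8 members in the 3 diploid strains, 1 library per point (vegetative wild type: the mean, with dashes for its 2 libraries). The wild-type line of cnp1 falls from 210 at 1 h to 23.9 at 3 h, and those of nnf1 and ndc80 reach 143 and 419 at 4 h, later than in pir1Δ and earlier than in red1Δ.

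The 14 inner kinetochore genes had no common time. Of these, 13 passed the F test over the course, and fta4 did not (adjusted p 0.726). The CENP-C gene cnp3 read 95.5 and 72.7 CPM in the vegetative libraries, 129 at 2 h and 33.7 at 5 h in wild type. Its log2 difference of 4 to 6 h from 1 to 3 h was -0.85 ± 0.17 (adjusted p 0.000717). Of the Sim4 complex, fta7 fell most: it read 45.0 CPM at 1 h, 7.6 at 3 h and 5.39 at 4 h in wild type (-1.43 ± 0.22, adjusted p 9.1e-05). In wild type from 4 h to 8 h the estimated strand leak from the overlapping gene pdh1 exceeded the sense reads of fta7 (195% at most). The low values there, and with them the size of the fall, are therefore uncertain. When the leak was subtracted as an alternative, the fall kept its sign. The CCAN subunit gene mal2 read 30.6 and 29.4 CPM in vegetative wild type, 75.2 at 1 h and 20.9 at 5 h (-0.74 ± 0.12, adjusted p 0.000117). The CENP-T gene cnp20 read 13.2 and 11.3 CPM in vegetative wild type and 23.3 at 2 h, and fell to 8.66 at 5 h (-0.44 ± 0.14, adjusted p 0.0149). Unlike these, sim4 fell across strains with starvation (-0.95 ± 0.29, adjusted p 0.0123) and again at 4 to 6 h (-0.68 ± 0.18, adjusted p 0.00439). With starvation it went from 54.1 to 22.6 CPM in red1Δ and from 48.1 to 16.7 in pir1Δ. In wild type sim4 read 31.9 and 31.4 in vegetative cells, 25.4 after starvation, 31.2 at 1 h and 7.72 at 4 h. The starvation call of sim4 was lost without red1Δ and without pir1Δ, and its 4 to 6 h call without wild type. The Mis6 complex subunit mis17 ran from 45.0 CPM in vegetative cells to 3.37 at 4 h and back to 29.5 at 6 h in wild type.

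Other inner genes were late. In wild type mis15, which acts with mis6 and mis17, read 18.0 and 17.7 CPM in vegetative cells, 66.9 at 3 h, 59.8 at 4 h and 15.4 at 5 h. The constitutive centromere subunit mis6 read 12.7 and 18.2 CPM in vegetative wild type, 49.0 at 4 h, 113 at 5 h, 43.5 at 6 h and 19.2 at 7 h. In red1Δ it reached its highest value, 49.8, at 7 h, and in pir1Δ 61.6 at 3 h. The wild-type maximum of fta2 was 110 CPM at 5 h, and that of fta3 was 207 at 6 h. The last rose at 4 to 6 h against 1 to 3 h by 0.45 ± 0.15 (adjusted p 0.0176), a sign that turns if total counts rather than TMM set the scale.

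Of the Mis12 complex and Spc7, 4 of the 5 genes were highest at 4 or 5 h in wild type with TMM scaling, and mis13 and nnf1 also with total counts. All 5 genes were below their wild-type course mean in vegetative and in starved cells. In wild type nnf1, a Mis12 complex subunit, read 29.2 and 19.0 CPM in vegetative cells, 25.4 after starvation, 28.1, 53.7 and 71.4 at 1, 2 and 3 h, 143 at 4 h, 76.1 at 5 h and 30.7 at 6 h. In red1Δ it climbed from 30.2 at 1 h to 139 at 6 h, and in pir1Δ it was highest at 2 h (67.0) and 18.4 in vegetative cells. Its partner mis13 went from 11.7 CPM at 1 h to 63.0 at 4 h in wild type, from 11.5 to 46.8 at 6 h in red1Δ, and was at 32.3 to 40.0 from starvation to 4 h in pir1Δ. Across strains mis13 rose at 4 to 6 h against 1 to 3 h by 0.66 ± 0.24 (adjusted p 0.0335). The name-giving subunit mis12 read 36.4 CPM in both vegetative wild-type libraries, 72.9 at 1 h, 62.7 at 2 h, 53.7 at 4 h and 124 at 5 h. Its other strand read 425 CPM at 1 h, where strand leak was 4.92%, so leak adds to the sense value there. In the column without strand mis12 read 32.9 at 1 h and 77 at 5 h. On the sense strand mis12 rose at 4 to 6 h across strains by 0.35 ± 0.13 (adjusted p 0.0372), and the sign turns with total counts. The scaffold spc7 moved less, from 55.5 to 122 CPM at 4 h in wild type. The exception in the group was mis14, which read 28.0 CPM at 1 h, 6.99 at 4 h and 26.2 at 7 h in wild type. In red1Δ mis14 was highest after starvation, at 33.0 CPM, and in pir1Δ it ranged from 16.7 to 28.6. Its F test over the course missed the threshold (adjusted p 0.445).

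Of the Ndc80 complex, ndc80 itself moved most. Its wild-type values were 75.8 and 57.3 CPM in vegetative cells, 138 after starvation, 176, 215 and 318 at 1, 2 and 3 h, 419 at 4 h, 141 at 5 h and 70.2 at 6 h. In red1Δ they were 207 after starvation, 290 at 5 h and 144 at 8 h. In pir1Δ they fell steadily from 250 after starvation to 67.2 at 8 h. After starvation ndc80 was higher by 1.47 ± 0.38 (adjusted p 0.00374). Of the other 3 subunits spc25 was also highest at 4 h in wild type, at 102 CPM. The value of nuf2 was 61.3 CPM at 3 h and 22.4 at 5 h, and it fell across strains at 4 to 6 h (-0.48 ± 0.13, adjusted p 0.00472). That of spc24 was 118 after starvation and 37.5 at 4 h. Strand leak from the genes on the other strand, rrn7 and tif512, came to as much as 65.1% of the sense reads of spc24, and subtracting it moved the rise after starvation from 0.87 ± 0.34 (adjusted p 0.0483) to 1.61 ± 0.29 (adjusted p 0.00013). At 7 and 8 h, spc25 was lower than at 4 to 6 h (-0.60 ± 0.14, adjusted p 0.042). It was the only member called in that step with edgeR, where 0.38% of all genes were called lower. Leaving out any 1 of the 3 strains lost this call. DESeq2 called 9 members in that step.

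The 8 DASH genes were mostly early. In wild type dad1, dad3, dad4, dad5 and spc34 were highest at 1 h, dam1 at 2 h, dad2 at 3 h and spc19 at 4 h. The value of dad3 was 36.6 CPM at 1 h and 4.55 at 4 h, and that of spc19 was 15.9 in vegetative library 1 and 73.0 at 4 h. The microtubule-ring subunit dam1 went from 18.0 and 9.46 CPM to 56.8 at 2 h in wild type. The F test over the course missed the threshold for dad1, at 12.7 to 33.6 CPM in wild type (adjusted p 0.246), dad2, at 7.96 to 14.6 (adjusted p 0.341), and spc34 (adjusted p 0.318). After starvation, dad5 (Hsk3) rose by 1.27 ± 0.28 (adjusted p 0.000963) and dam1 by 1.26 ± 0.30 (adjusted p 0.00204). For dad5 the value was 0.65 ± 0.31 (adjusted p 0.132) without red1Δ and 0.60 ± 0.26 (adjusted p 0.0695) in the column without strand.

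Among the members that are no subunits, mal1 had the largest range. It read 62.6 and 72.1 CPM in vegetative wild type, 488 at 3 h, 2850 at 4 h and 7053 at 5 h. The cohesin loader gene mis4 rose with starvation, from 62.3 and 64.9 CPM to 316 in wild type, by 2.06 ± 0.29 across strains (adjusted p 5.27e-06). The EB1 gene mal3 followed the loading genes, with 303 CPM at 1 h and 28.0 at 5 h in wild type (-1.22 ± 0.22, adjusted p 0.000297). Of the signal peptidase genes, spc1 read 67.3 CPM at 1 h and 19.3 at 6 h in wild type, while spc3 read 54.3 after starvation and 306 at 7 h. In red1Δ and in pir1Δ spc3 stayed at 45.3 to 72.0 and at 47.2 to 61.5. The spc3 course depends on strand. In the column without strand it read 137 at 7 h in wild type, and rose in pir1Δ from 63.8 in vegetative cells to 102 at 7 h.

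Counted by step with edgeR, 12 members rose and 4 fell from vegetative to starved cells, where 19.7% of all genes were called higher and 20.3% lower. The 4 that fell were fta3, fta6, mis3 and sim4. From starvation to 1 to 3 h no member was called, where 10.6% of all genes were; 5 members had an unadjusted p under 0.05 and DESeq2 called 1. From 1 to 3 h to 4 to 6 h, 15 members fell (21.1% of all genes did) and 4 rose, fta3, mal1, mis12 and mis13 (21.3%). Of the 15, 4 were among the 6 CENP-A and loading genes and 6 among the 14 inner genes, against 0 of the 5 in the Mis12 and Spc7 group, of which 2 rose. This difference between groups was not tested. Leaving out 1 strain leaves fewer libraries per time. The starvation call was then lost for ndc80 and dam1 without pir1Δ, for dad5 without red1Δ and for spc24 without any of the 3, while cnp1 and mis4 were called each time. Of the 19 calls at 4 to 6 h, 13 were lost without wild type, mis12, mis13 and cnp3 among them, and 4 each without red1Δ and without pir1Δ.

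The order of the wild-type maxima followed these groups only in part. Of the 37 subunits, 12 were highest at 1 h and 8 at 4 h: mis16, mis20, mis13, nnf1, spc7, ndc80, spc25 and spc19. At the same 4 h, 10 subunits had their lowest value: mis18, mis19, fta7, mis17, sim4, mis14, spc24, dad3, dad4 and spc34. Total-count scaling runs from 0.60 (log2) above TMM scaling after starvation to -0.64 from it at 8 h in wild type. With total counts, 11 rather than 18 subunits were highest at 3 to 8 h in wild type, 7 rather than 14 in red1Δ, and 1 rather than 5 in pir1Δ. The 4 h maxima of mis16, mis13, nnf1 and spc19 were at 4 h under both scalings, and so was the 5 h maximum of mis6. With total counts those of ndc80 and spc25 were at 3 h, that of spc7 at 2 h, and those of mis20, mis12 and fta2 at 1 h. Strand leak adds to the 1 h value of mis12.

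**Figure D3:**
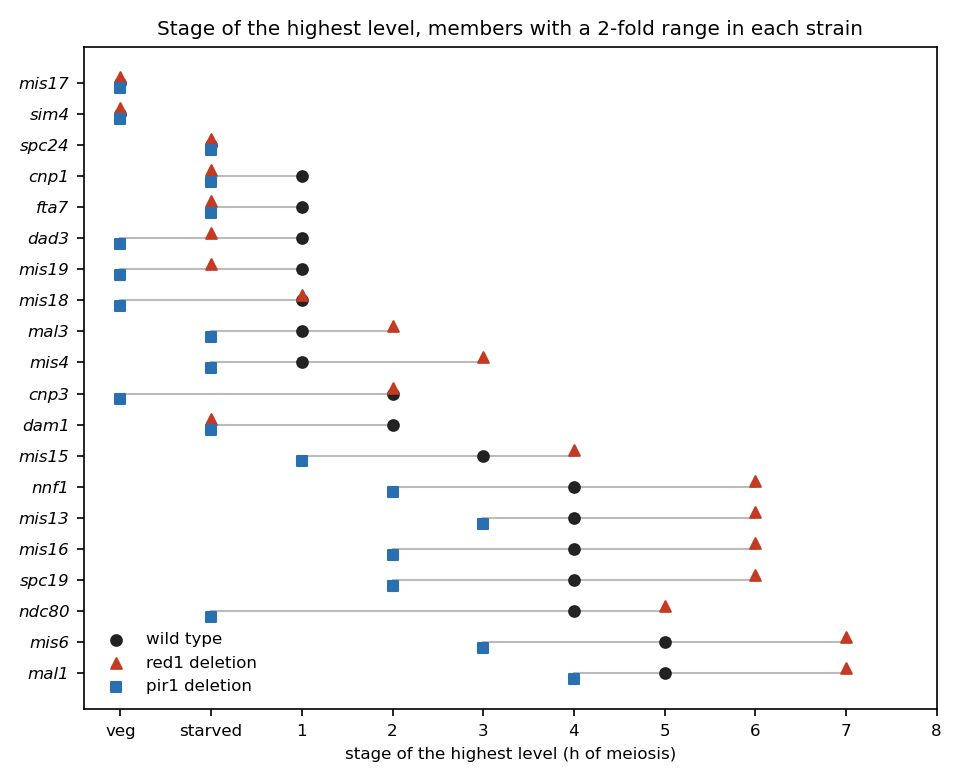
Stage of the highest CPM (horizontal axis, h of meiosis) of the 20 members with a range of at least 2-fold in all 3 strains; points stand for wild type (circles), red1Δ (triangles) and pir1Δ (squares). The 8 members highest at 3 to 6 h in wild type lie later in red1Δ and earlier in pir1Δ.

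The maxima lay at other times in the deletion strains. Of 20 members with a range of at least 2-fold in all 3 strains and a mean above 5 CPM, 17 peaked earlier in pir1Δ than in wild type and none later, and 10 peaked later and 5 earlier in red1Δ. Over the 3052 genes of the whole genome with such a range, 51.9% peaked earlier and 6.16% later in pir1Δ, and 39.6% later and 21.4% earlier in red1Δ. For the 8 that peaked at 3 to 6 h in wild type (mis16, mis15, mis6, mis13, nnf1, ndc80, spc19 and mal1), all 8 were later in red1Δ, by a median of 2 time steps, and all 8 were earlier in pir1Δ, by a median of 2. Over the 1109 genes picked in the same way from the whole genome, 80.2% were later in red1Δ and 83.5% earlier in pir1Δ, so the 8 moved as most such genes did. With total-count scaling 5 of the 8 were later in red1Δ and 3 at the same time, and all 8 were still earlier in pir1Δ. Of the members highest at 1 h in wild type, cnp1, mis19, fta7, mis14, dad3, dad4 and dad5 were highest after starvation in red1Δ and spc1 in vegetative cells. There mis18, sim3, mal2 and spc34 stayed at 1 h, and mal3, mis4 and dad1 were later. Among genes that mark the stage of meiosis, mei4, the regulator of middle meiosis, was highest at 4 h in wild type, 5 h in red1Δ and 1 h in pir1Δ. The early genes rec8, rec10 and rec12 were highest at 1 h in wild type and after starvation in both deletions. These peak times rest on 1 library per time (vegetative wild type: the mean of 2) and have no test.

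Averaged over the 10 times, red1Δ differed from wild type in 11 members (edgeR, time as a block). Higher were mis15, nnf1, sim4, spc25 and spc7, where 12.5% of all genes were called higher. Lower were cnl2, dad4, mis12, mis20, mis3 and spc3, where 16.5% of all genes were. The Mis6 complex gene mis15 read 25.2 to 55.9 CPM in red1Δ and 14.3 to 66.9 in wild type, and its log2 difference was 0.67 ± 0.19 (adjusted p 0.0119). The ranges overlap: mis15 was at 42.8 to 55.9 from 4 h to 6 h in red1Δ, while wild type went from 59.8 at 4 h to 15.4 at 5 h. The log2 difference of nnf1 was 0.80 ± 0.29 (adjusted p 0.0415), and that of mis3 was -0.70 ± 0.08 (adjusted p 1.3e-06). The other higher members were sim4 (0.49 ± 0.17, adjusted p 0.0307), spc25 (0.44 ± 0.12, adjusted p 0.00643) and spc7 (0.27 ± 0.10, adjusted p 0.0441). The DASH gene dad4 was lower by a log2 difference of -0.44 ± 0.12 (adjusted p 0.00812). It read 21.6 CPM at 8 h in red1Δ and 41.3 in wild type, and the values at 5 h were 21.2 and 26.0. With total counts all red1Δ differences would be higher by 0.35. That turns the sign of cnl2 among the 11, and it is as large as the mis12 difference of -0.35.

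The smallest adjusted p between the 2 deletions was that of mis20, which encodes a subunit of the Mis18 complex. It read 8.99 to 19.7 CPM in red1Δ, 14.6 to 46.4 in wild type and 31.8 to 50.2 in pir1Δ. With TMM scaling the red1Δ and pir1Δ values did not overlap. Total counts would raise red1Δ against pir1Δ by a log2 of 0.66, which brings them closer. On that scale the highest red1Δ value (19.7, after starvation) would move by 0.60 and the lowest pir1Δ value (31.8, at 8 h) by -0.73. The ranges would then overlap, so their separation depends on the scaling. Against wild type mis20 was lower in red1Δ (-0.82 ± 0.13, adjusted p 6.65e-05) and higher in pir1Δ (0.72 ± 0.13, adjusted p 0.000101). These comparisons share the wild-type libraries. Total counts would shift them by 0.35 and -0.32, which makes both smaller. Set against each other, red1Δ was below pir1Δ by a log2 difference of -1.54 ± 0.13 (adjusted p 7.73e-09). With the kind of library as a term in the fit, chosen after the data were seen, it was -1.89 ± 0.40 (adjusted p 0.0301), and mis20 was the only member still called of the 20 that differed between red1Δ and pir1Δ, where 27.9% of all genes were called higher and 26.3% lower. The difference of pir1Δ from wild type then read 1.05 ± 0.37 (adjusted p 0.717). In vegetative cells mis20 read 37.2 CPM in pir1Δ against 16.8 and 14.6 in the wild-type libraries, the latter of the same kind as pir1Δ.

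**Figure D4:**
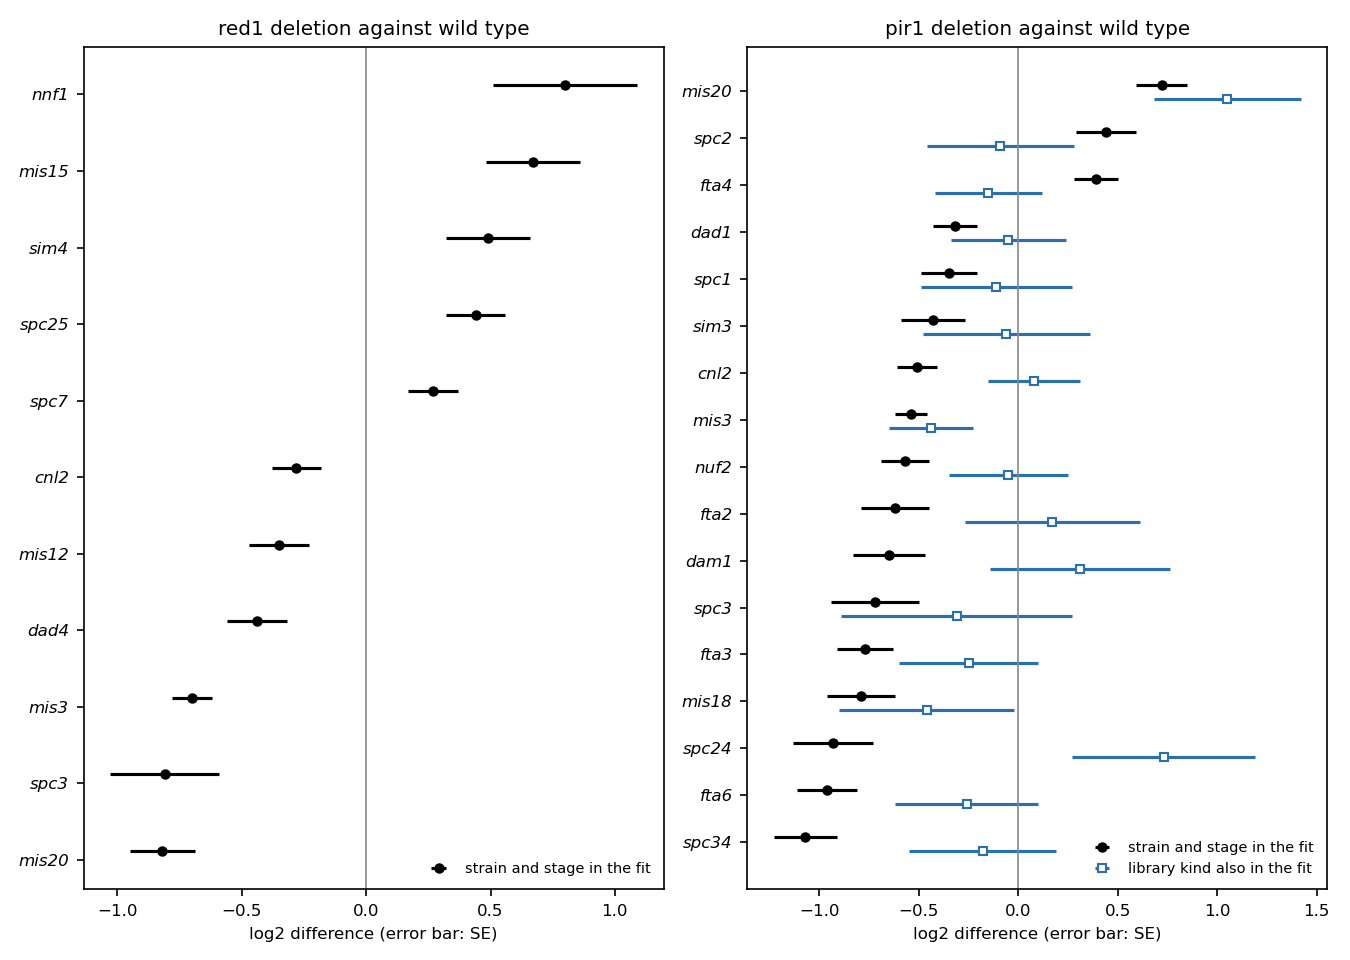
Log2 difference from wild type, averaged over the course, of the 11 members called in red1Δ (left) and the 17 called in pir1Δ (right). Circles are the edgeR fit with strain and stage, open squares, drawn on the right alone, the fit with the kind of library too, and bars are SE. The circle of mis20 is at -0.82 on the left and 0.72 on the right, where 16 of the 17 squares, all but that of mis20, lie nearer to 0.

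Over the course the pir1Δ differences from wild type, that of mis20 among them, cannot be told apart from the kind of library. Averaged over the course, 14 members were lower in pir1Δ (26.2% of all genes were) and 3 higher, fta4, mis20 and spc2 (22.1%). Those lower were cnl2, dad1, dam1, fta2, fta3, fta6, mis18, mis3, nuf2, sim3, spc1, spc24, spc3 and spc34. The largest was spc34, a DASH subunit, at 30.6 to 49.0 CPM in pir1Δ and 37.8 to 123 in wild type (-1.07 ± 0.16, adjusted p 9.57e-06). But in vegetative cells spc34 read 71.0 in wild-type library 1, 37.8 in wild-type library 2 and 33.3 in pir1Δ. The values of spc24, with its strand leak, were 97.3, 24.2 and 28.4, those of fta6 were 14.5, 6.28 and 4.45, and those of dam1 were 18.0, 9.46 and 9.84. In these 4, wild-type library 2 was nearer to pir1Δ than to wild-type library 1. It was not so for mis3, at 91.0, 88.1 and 72.5, whose difference of -0.54 read -0.44 ± 0.21 with the kind of library as a term. Between the 2 wild-type libraries themselves spc24 and fta6 were past a log2 ratio of 1, both lower in library 2 (11.1% of genes were). Between vegetative pir1Δ and wild-type library 2 only mis20 was past 1, at 1.34 (4.44% of genes were higher). With the kind of library as a term none of the 17 was called, against 11 for red1Δ, where 10 of the original 11 were shared and nnf1 had an adjusted p of 0.0528. That fit tells kind from strain by wild-type vegetative library 2 alone. At 1 to 3 h alone 27 members differed in pir1Δ, 5 higher and 22 lower (47.5% of all genes were called), and 0 did with the kind of library as a term.

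The strain difference varied between phases (vegetative and starved, 1 to 3 h, 4 to 6 h, 7 and 8 h) for mal1 and mis6 in red1Δ, 2 of 44 members, where 7.41% of all genes were called. In pir1Δ it did so for mal1, mal3, mis6, sim3 and spc3, where 8.71% were. The red1Δ difference of mis6 was -0.70 ± 0.27 at 4 to 6 h and 1.22 ± 0.33 at 7 and 8 h (adjusted p 0.0171 for the latter).

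In growing cells no member was called for loss of Pir1. Over 11 libraries in 5 backgrounds, pir1Δ changed 0 of 44 members by edgeR (0.436% of all genes, 28 of 6420). The count was also 0 without the cul4Δ pair, whose pir1Δ library held the 15.7 CPM of iss10. By unadjusted p under 0.05 there were 2, sim4 and fta3, and DESeq2 called 0. In simulated counts of that design, 100% of genes changed by 1.5 (log2) and 71% of those changed by 0.75 were called. The simulation gave every gene the same dispersion and the same mean in all backgrounds, and changed only well-read genes. In the real fit the SE reached 0.38 for fta6 and 0.37 for spc24. These rates therefore do not say how large a change would have been called in each member. Over the 6 tor2-ts6 libraries alone the count was also 0 (0.426%, 27 of 6331), with 2 members at an unadjusted p under 0.05. The difference for mis20 was 0.41 ± 0.19 (adjusted p 0.939): by background it was 0.15, 0.07 and 0.12 in the ubi4Δ, cul4Δ and ddb1Δ strains of tor2-ts6, 0.22 in mat1Msmt0 cells, and 1.13 and 1.32 in the diploid against wild-type libraries 1 and 2.

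The remaining comparisons have 1 library on each side and no replicate check, and members past a log2 ratio of 1 are named. In h90 tor2-ts6 cells dad5 read 55.9 CPM against 6.82 in wild type (log2 ratio 3.00). Also higher were mis4 (246 against 85.4) and mal2 (86.4 against 38.9), and lower were mis3 (30.8 against 96.8) and spc1 (33.2 against 115). Those 3 and 2 of 44 compare with 16.2% of genes higher and 15.7% lower. The gene gaf1 starts downstream of dad5 on the same strand and read 637 CPM in tor2-ts6 against 222 in wild type, and its part in the dad5 reads was not tested. In the authors' deposited table for mat1Msmt0 cells, tor2-ts6 also had dad5 as its most raised member, at a log2 fold change of 3.47, and mis3 as its most lowered, at -2.04. Of the 44 members, 11 were at 1 or more and 2 at -1 or less in the authors' deposited table, and 37.7% of its genes were past 1 in either direction. The raised ones included ndc80 (1.36), spc7 (1.30) and mis13 (1.78). In h90 cells their log2 ratios were 0.65, 0.64 and 0.84 with TMM scaling. Total counts would raise the ratios of that pair by a median of 0.44, which takes all 3 past 1. For pir1Δ the authors' deposited table had no member past 1 (range -0.45 to 0.90, 9.89% of genes past 1).

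Further deletions in tor2-ts6 moved few members past 1. With ubi4Δ, dad5 read 124 CPM (log2 ratio 1.14), and mal2 and mis4 were lower (1.31% of genes higher, 8.29% lower). With cul4Δ cnp3 read 182 CPM against 54.4 in tor2-ts6 (1.74), and mal2, mis14 and mis4 were lower (8.72% and 6.32%). With ddb1Δ cnp3 read 123 CPM (1.17) and no other member passed (5.08% and 2.37%). These 3 comparisons share the tor2-ts6 library. No member passed 1 between GFP-Pir1-SD or GFP-Pir1-SA and GFP-Pir1 (3.97% and 0.809% of genes in either direction).

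The CENP-C gene cnp3 passed a ratio of 1 in both pairs of media, in the first of which medium and temperature changed together. In GFP-Pir1 cells cnp3 read 355 CPM in YEA at 30°C and 51.7 in EMM at 18°C (log2 ratio -2.78), where 12.1% of genes were higher and 7.97% lower. In the same pair mal1 rose from 43.6 to 377 CPM and cnl2 read 9.73 in EMM against 20.2 in YEA. For cnl2 the sign depends on strand: in the column without strand it read 84 in EMM and 26.5 in YEA (1.66). No member was past 1 between mat1Msmt0 pir1Δ and wild type in EMM at 29°C (1.58% of genes in either direction). In mat1Msmt0 pir1Δ cells at 29°C cnp3 read 40.5 in EMM and 85.3 in YEA (-1.07), the only member past 1 (5.25% of genes higher, 1.93% lower). The h90 wild type in YEA at 30°C read 107, so the 355 of GFP-Pir1 cells in YEA was the highest cnp3 value of the 46 libraries.

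**Figure D5:**
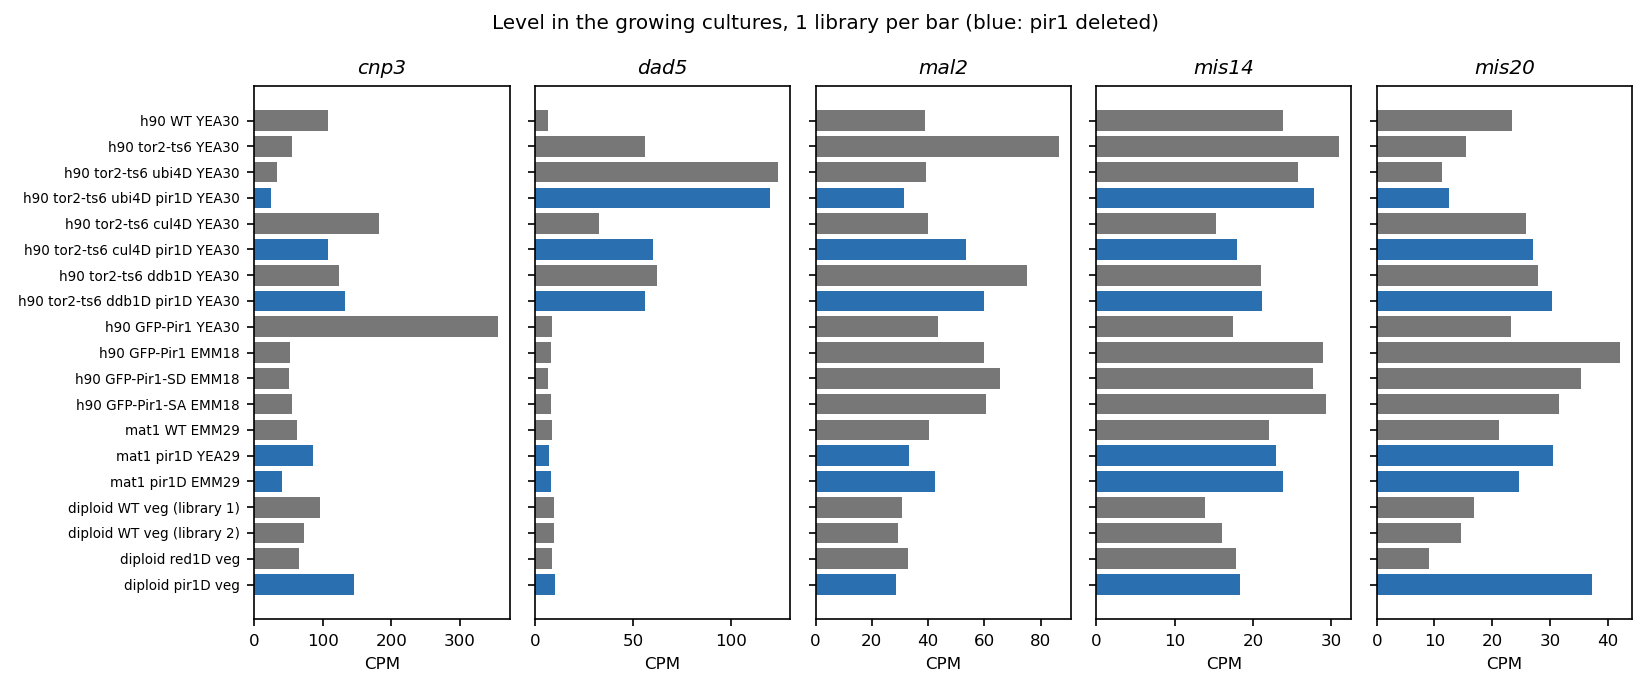
CPM (bars from 0, 1 library each) of cnp3, dad5, mal2, mis14 and mis20 in the growing cultures, with pir1Δ strains in blue. The dad5 bars of the tor2-ts6 strains run from 32.4 to 124, against 6.82 in wild type, and the longest cnp3 bar is the 355 of GFP-Pir1 cells in YEA.

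Genes that work with the kinetochore but have other symbols were counted from lists drawn up with earlier results of these data known. Of 5 genes found from the first list, all 5 were higher over the red1Δ course: moa1, rec8, sgo1, mde4 and csi1. The meiotic cohesin gene rec8 read 65.1 to 589 CPM over the red1Δ course and 6.41 to 423 over that of wild type. Over all genes 12.5% were higher and 16.5% lower in red1Δ. Of 7 spindle checkpoint genes, 3 were called in red1Δ, 1 higher (bub1) and 2 lower (mad2 and mad3). Of 8 further kinetochore genes found by other symbols, 0 rose and 2 fell in red1Δ, mhf1 and wip1.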

How the data were processed

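RNA from 49 samples was sequenced after library preparation with either of 2 directional kits, per the labels' protocols. The submitters' processing notes name Trimmomatic and STAR as the authors' tools. Their versions, and the build and annotation used, were not given in the sources used here. For 46 samples the deposited values are raw read counts per gene, without strand and per strand, per the file headers. For the other 3 samples, 2 deposited tables of the authors give log2 fold changes and q-values.

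Sense-strand counts were used for all libraries. This choice was made after the data were seen, because the column without strand holds almost no reads of several members (0% of the sense reads for nnf1, dad3, dam1 and spc34). Rows that name no gene were left out. Counts were scaled by TMM and tested with edgeR 4.0.16 (quasi-likelihood F test, filterByExpr, Benjamini-Hochberg over all genes, threshold 0.05) in R 4.3.3. DESeq2 1.42.0 was an alternative. Course tests had strain and time as terms, so that strains stood in for replicates of a time and times for replicates of a strain. The script was tested on simulated counts. With 1 library per side, log2 ratios used a prior count of 2 and genes with at least 50 reads.

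Every member could be named; statistics went to the members with the largest ranges or differences and to cnp1, mis12, spc7, ndc80, dad1 and mis6. The members and lists were chosen with earlier results of these data known. Alternatives were other size factors, no filter, the column without strand, leaving out libraries, times or strains, subtracting strand leak, and the kind of library as a term.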

Additional observations from a re-analysis of the deposited data

Results flagged for a closer look

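The difference from wild type varied between phases of the course, by the edgeR F test of the interaction, for 2 members in red1Δ and 5 in pir1Δ. In red1Δ the adjusted p was 0.0176 for mal1 and 0.0459 for mis6. The red1Δ difference of mal1 was 1.08 ± 0.52 (log2 ± SE) at 1 to 3 h and -2.13 ± 0.51 at 4 to 6 h. In pir1Δ the adjusted p was 0.00294 for mal1, 0.0149 for spc3, 0.0324 for sim3, 0.0455 for mal3 and 0.0475 for mis6. The pir1Δ difference of mal1 was 4.08 ± 0.57 at 1 to 3 h and -1.06 ± 0.60 at 7 and 8 h. That of spc3 was 0.06 ± 0.29 before the drug and -2.23 ± 0.33 at 7 and 8 h. In the column without strand spc3 read 102 CPM in pir1Δ and 137 in wild type at 7 h. The sim3 difference was -1.20 ± 0.21 at 1 to 3 h and 0.06 ± 0.21 at 4 to 6 h.

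Reads on the opposite strand, which no comparison uses, rose in wild type at 4 of the members with no coding gene on that strand, after the strand leak was subtracted, to 34.4 CPM at mis18, 27.6 at cnp20, 25.5 at mis4 and 75.4 at spc3. Each was at least 15 CPM and at least 2 log2 units above vegetative cells. Members with a coding gene there, such as mis12, were not considered.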

How the results depend on the processing

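Over 1513 values of named members under the alternatives, 1282 kept their direction and side of the threshold, 211 fell short of the threshold and 20 turned sign. The cause was not tested unless stated. Without strand, 9 members were called after starvation, 0 at 7 and 8 h and 3 for pir1Δ by phase. In that column the signs turned for fta6 after starvation (0.08), mis18 at 4 to 6 h (1.08), in pir1Δ (0.55) and between the deletions (-1.01), fta2 and mis18 in pir1Δ at 1 to 3 h (0.01 and 1.34), and cnl2 in the GFP-Pir1 medium pair (1.66); the pairs then had 0 members past 1 for ubi4Δ, 2 for cul4Δ, 0 for ddb1Δ and 6 between the vegetative wild-type libraries. With the kind of library as a term, the calls were 0 in pir1Δ, 1 between the deletions, 0 in pir1Δ at 1 to 3 h and 2 at 7 and 8 h. In that fit pir1Δ differences turned for cnl2 (0.08), dam1 (0.31), fta2 (0.17), fta4 (-0.15), spc2 (-0.09) and spc24 (0.73, and 0.28 at 1 to 3 h), and those between the deletions for fta2 (-0.28), fta3 (-0.06), fta4 (0.05), spc19 (-0.42), spc24 (-0.80) and spc34 (-0.11). DESeq2 called 1 member from starvation to 1 to 3 h and 9 at 7 and 8 h. Subtracting strand leak gave 4 members for red1Δ by phase. With total counts, the members past 1 were 11 for tor2-ts6, 1 for cul4Δ, 6 for the GFP-Pir1 media, 0 for the mat1Msmt0 media, 2 for vegetative pir1Δ and 17 between the vegetative wild-type libraries, and 11, 7 and 1 subunits peaked at 3 to 8 h in wild type, red1Δ and pir1Δ.

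Leaving out a library, a time or a strain gave 9 to 30 calls over the course, 4 to 14 after starvation, 0 to 2 from starvation to 1 to 3 h, 6 to 23 at 4 to 6 h and 0 to 3 at 7 and 8 h. For the strains it gave 6 to 11 in red1Δ, 14 to 21 in pir1Δ, 18 to 21 between them, 2 to 3 and 5 to 6 by phase, and 25 to 26 in pir1Δ at 1 to 3 h. In growing cells it gave 0 to 0 in both pir1Δ tests. No paired analysis was possible because the groups compared share fewer than 2 replicate numbers; times, strains or backgrounds were blocks in the tests themselves. With 1 library per strain and time, differences at a given time have no replicate check.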
